A study of Mus musculus with 8 samples.

Results

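Growth hormone reaches the liver from the pituitary and binds its receptor on hepatocytes, where the kinase JAK2 activates the transcription factor STAT5B. STAT5B turns on Igf1, Igfals and the feedback inhibitors Socs2 and Cish, and the liver is the main source of circulating IGF1, the growth factor that carries much of the hormone's effect. In blood, IGF1 travels bound to IGF-binding proteins, in large part in a complex with IGFBP3 and the acid-labile subunit encoded by Igfals. The results below describe 10 genes of this axis, namely Ghr, Stat5b, Igf1, Igfals, Socs2, Cish, Igfbp1, Igfbp2, Igfbp3 and Igfbp4. They were taken by symbol from a table of 16337 genes, and all 10 were found in it.

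RNA was sequenced from primary hepatocytes of 2 genotypes, C57BL/6 wild type and a Hamp knockout (HAMP-/-) that lacks hepcidin, the liver hormone of iron balance. The mice were males aged 4 weeks that had received either carbon tetrachloride (CCl4), a solvent toxic to hepatocytes, as a 12.5% mixture with olive oil, or olive oil alone, and exposure lasted 24 h. Each of the 4 groups (wild-type oil, wild-type CCl4, knockout oil and knockout CCl4) held 2 libraries, although the design names 6 mice a group. The labels do not say whether libraries come from separate or pooled animals or how the knockout was made, and the p-values below therefore reflect variation among libraries that may be technical. The study's title concerns hepcidin, hepatocyte death and the PERK stress kinase.

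Hamp, the deleted gene, stood at 1136 to 1826 FPKM in the 4 wild-type libraries and at 0.54 to 2.72 FPKM in the 4 knockout libraries. FPKM counts fragments relative to transcript length and to all mapped fragments of a library, and the read depth behind it is unknown. Alb was the most abundant gene in all 8 libraries, as is usual for hepatocytes, and none of the 10 hepatocyte markers was listed at 0. Of these 10 markers, 6 fell with CCl4 in the knockout (27.4% of all genes fell there) and 1 in wild type (5.61%). Between the genotypes, 4 were higher in the knockout in oil (22.4% of all genes), and 1 was higher and 5 lower after CCl4 (29.6% and 27.5%). Their sum was 7.79% to 8.74% of FPKM in wild-type libraries, 13.8% and 12.1% in knockout oil, and 11.3% and 8.53% in knockout CCl4. Alb alone made up most of this sum in every library, such as 30693 of 48035 FPKM in replicate 2 of wild-type oil and 47804 of 69744 FPKM in replicate 2 of knockout oil. The sum therefore mainly follows 1 gene. The SD of the log2 difference between the 2 libraries of a group was 0.364 in knockout oil and 0.394 in knockout CCl4 against 0.139 in both wild-type groups. Transcripts of other liver cells differed between the groups. The 12 macrophage markers summed to 0.00537% and 0.00619% of FPKM in wild-type oil, 0.0330% and 0.0352% in wild-type CCl4, 0.0590% and 0.0738% in knockout oil, and 0.0923% and 0.110% in knockout CCl4. The 10 sinusoidal endothelial markers, genes of the cells that line liver capillaries, summed to between 0.00157% and 0.00203% in wild-type libraries and between 0.00592% and 0.0122% in knockout libraries. The 10 neutrophil and monocyte markers summed to 0.00159% and 0.00165% in wild-type oil, 0.0154% and 0.0158% in wild-type CCl4, 0.00132% and 0.00164% in knockout oil, and 0.0133% and 0.0150% in knockout CCl4. With CCl4, 9 of them rose in each genotype, beside 10.2% of all genes in wild type and 27.9% in the knockout. Their part in the CCl4 differences below was not tested. The 10 stellate markers summed to 0.000255% to 0.000379% in wild type, 0.000796% and 0.000592% in knockout oil, and 0.00143% and 0.00102% in knockout CCl4, with Hhip at 0 in 3 libraries, Acta2 in 2 and Pdgfrb in 1. The 8 cholangiocyte markers summed to 0.00174% to 0.00323% in the oil libraries and 0.00379% to 0.00767% in the CCl4 libraries. Fewer cells of a type and less RNA per cell cannot be told apart in such bulk samples.

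Promoter stretches are shown for the 3 genes in whose windows the motifs searched were found. They place sites for STAT5 and for forkhead factors, only some of which insulin controls, beside the expression values. The sequences come from RefSeq on GRCm38.p6, whose table held 14 windows for 9 of the 10 genes, each reaching from 250 bases before to 50 bases after a transcript start. The motifs were TTCNNNGAA for STAT5, which reads alike on both strands, GTAAACA for forkhead factors and CAAAACA, the core of an insulin response element, on both strands, and capitals mark the matches. None of the capital stretches overlapped another. For Igfbp1 and for the second of the 3 Igfals windows the 250 bases before the start are printed, and for Cish the 10 bases before and the 20 bases after it.
Igfbp1, chr11:7197537-7197786, plus strand: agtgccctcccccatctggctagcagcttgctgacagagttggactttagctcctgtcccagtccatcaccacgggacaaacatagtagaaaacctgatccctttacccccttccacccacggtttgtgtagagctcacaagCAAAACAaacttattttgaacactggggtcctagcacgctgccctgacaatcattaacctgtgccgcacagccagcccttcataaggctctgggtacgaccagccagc
Igfals, chr17:24877981-24878230, plus strand: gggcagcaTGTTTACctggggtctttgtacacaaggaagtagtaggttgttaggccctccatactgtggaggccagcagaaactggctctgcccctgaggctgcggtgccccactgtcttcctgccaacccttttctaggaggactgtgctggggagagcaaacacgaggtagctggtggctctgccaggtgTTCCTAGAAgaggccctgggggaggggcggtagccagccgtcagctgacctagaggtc
Cish, chr9:107296649-107296678, plus strand: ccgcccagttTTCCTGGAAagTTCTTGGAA
The insulin response element core of Igfbp1 began 108 bases before the start. In Igfals, a STAT5 motif began 58 bases before the start and a forkhead motif on the opposite strand began at position -242. Another Igfals window held a STAT5 motif from position -236 of its own start. Cish held a pair of STAT5 motifs, beginning at bases 1 and 12 of the transcript. Among all 32851 windows of the table, 8.30% held a STAT5 motif, 0.457% held at least 2, 3.65% held the forkhead motif and 6.28% the CAAAACA core. The other windows of these genes held no match, which says only that these letters are not in them.

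Differences between groups are given below as log2(FPKM + 1) values, a scale on which changes of low genes look smaller, with the standard error after ±, and folds are ratios of mean FPKM. A gene is said to have changed where limma's adjusted p, corrected over all 10082 genes tested, was under 0.05. All 10 genes were tested. Igfbp3 reached 1 FPKM only in the knockout CCl4 libraries and entered the test through them, so its calls follow in part from the filter on low values.

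Ghr encodes the growth hormone receptor. It was listed at 123 and 125 FPKM in the wild-type oil libraries, 112 and 116 FPKM in wild-type CCl4, 216 and 172 FPKM in knockout oil, and 80.3 and 73.5 FPKM in knockout CCl4. The groups did not overlap, with knockout oil the highest and knockout CCl4 the lowest. CCl4 left Ghr 2.52-fold lower in knockout hepatocytes (log2 difference -1.31 ± 0.11, limma adjusted p = 0.000125), while in wild type the difference was -0.12 ± 0.11 (limma adjusted p = 0.581). Against wild type, the knockout was 1.56-fold higher in oil (0.63 ± 0.11, limma adjusted p = 0.00676) and 1.48-fold lower after CCl4 (-0.56 ± 0.11, limma adjusted p = 0.00575). The hepatocyte markers that moved with these comparisons are given above, and their part in the values of Ghr was not tested. The call in oil was lost without replicate 1 of wild-type oil (limma adjusted p = 0.0542, the highest of its alternatives, of which the lowest was 6.01e-06).

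Stat5b, the transcription factor downstream of the receptor, was a low transcript whose genotypes did not overlap. Its values were 7.69 and 6.86 FPKM in wild-type oil, 5.39 and 5.06 FPKM in wild-type CCl4, 9.72 and 10.3 FPKM in knockout oil, and 9.13 and 10.2 FPKM in knockout CCl4. Knockout hepatocytes held 1.38-fold more in oil (0.41 ± 0.10, limma adjusted p = 0.0189) and 1.85-fold more after CCl4 (0.78 ± 0.10, limma adjusted p = 0.000751). CCl4 lowered it in wild type (-0.41 ± 0.10, limma adjusted p = 0.0344), and the knockout difference was -0.047 ± 0.10 (limma adjusted p = 0.715). Stat5b lies beside its close relative Stat5a on chromosome 11, and reads of their shared stretches could have been split between them. The call for CCl4 in wild type was lost without replicate 1 or 2 of wild-type oil (limma adjusted p = 0.223 and 0.1004), replicate 1 or 2 of wild-type CCl4 (0.131 and 0.202) or replicate 2 of knockout oil (0.0509) and with equal library medians (0.0631), against 0.00244 to 0.223 over all alternatives. The call in oil was lost without replicate 1 or 2 of wild-type oil (limma adjusted p = 0.0558 and 0.127) or replicate 2 of knockout oil (0.0905) and with equal library medians (0.0585), against 0.00125 to 0.127 over all alternatives.

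Socs2 encodes a suppressor that limits growth hormone signalling and is itself a STAT5B target. It was listed at 1.28 and 1.08 FPKM in wild-type oil, 1.66 and 1.97 FPKM in wild-type CCl4, 7.65 and 7.96 FPKM in knockout oil, and 15.6 and 12.7 FPKM in knockout CCl4. All 4 knockout libraries lay far above all 4 wild-type libraries. The knockout level was 6.61-fold higher in oil (2.02 ± 0.12, limma adjusted p = 9.58e-05) and 7.80-fold higher after CCl4 (2.42 ± 0.12, limma adjusted p = 1.71e-05). CCl4 raised it a further 1.81-fold in the knockout (0.78 ± 0.12, limma adjusted p = 0.00201). In wild type the log2 difference was 0.37 ± 0.12 (limma adjusted p = 0.100324, and 0.0119 to 0.407 over the alternatives), and the CCl4 responses of the genotypes differed by 0.41 ± 0.18 (limma adjusted p = 0.123, or 0.0472 without replicate 2 of knockout CCl4, with 0.0169 the lowest of its alternatives).

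Cish encodes another cytokine-induced suppressor, and its order of groups was not that of Socs2. Its values were 2.62 and 2.07 FPKM in wild-type oil, 5.30 and 4.81 FPKM in wild-type CCl4, 1.32 and 1.73 FPKM in knockout oil, and 10.1 and 12.9 FPKM in knockout CCl4. Both CCl4 groups lay above both oil groups, and within oil the knockout libraries were the lower ones. CCl4 raised Cish 2.16-fold in wild type (0.86 ± 0.15, limma adjusted p = 0.0118) and 7.53-fold in the knockout (2.30 ± 0.15, limma adjusted p = 3.79e-05), a difference of 1.44 ± 0.22 between the responses (limma adjusted p = 0.00319). Against wild type, the knockout difference was -0.41 ± 0.15 in oil (limma adjusted p = 0.0866) and 1.04 ± 0.15 after CCl4 (limma adjusted p = 0.00149). The wild-type call was lost without replicate 2 of wild-type oil (limma adjusted p = 0.0947) or replicate 1 or 2 of wild-type CCl4 (0.0908 and 0.0674), against 8.30e-05 to 0.0947 over all alternatives. The pair of STAT5 motifs printed above stands in this gene.

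**Figure D1:**
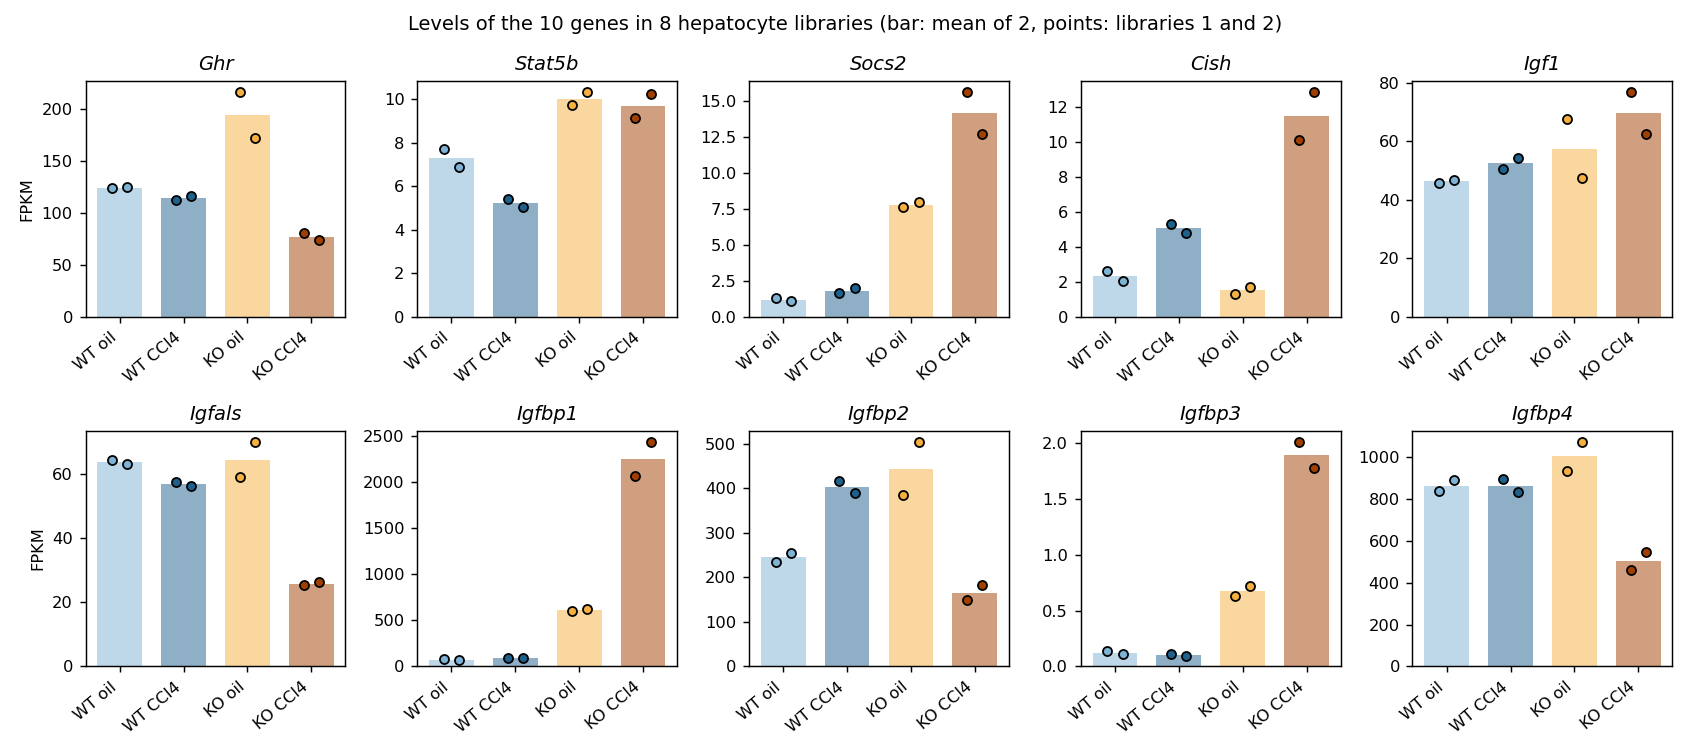
FPKM (linear axes from 0) of the 10 genes in wild-type (WT) and knockout (KO) hepatocytes given oil or CCl4, with bars for the mean of 2 libraries and points for each library. Igfbp1, Socs2, Cish and Igfbp3 were highest in the KO CCl4 libraries, where Ghr, Igfals, Igfbp2 and Igfbp4 were lowest.

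Igf1, the growth factor at the centre of the axis, passed the test in none of the 5 comparisons made with limma (unadjusted p under 0.05 in 0 of the 5, with 0.0596 the smallest). It was listed at 45.9 and 46.8 FPKM in wild-type oil, 50.6 and 54.2 FPKM in wild-type CCl4, 67.5 and 47.3 FPKM in knockout oil, and 76.7 and 62.3 FPKM in knockout CCl4. The knockout oil libraries lay apart from each other, so that this group overlapped those of both CCl4 treatments. The largest log2 difference was 0.39 ± 0.17, in knockout against wild type after CCl4 (limma adjusted p = 0.0917), with 9.91e-05 to 0.308 over the alternatives. It passed without replicate 1 or 2 of knockout oil (limma adjusted p = 0.0233 and 0.0236). The response to CCl4 in the knockout (0.29 ± 0.17, limma adjusted p = 0.208) passed without replicate 1 of knockout oil (0.0199, among alternatives of 0.00199 to 0.844). The knockout difference in oil (0.28 ± 0.17, limma adjusted p = 0.258) passed without replicate 2 of knockout oil (0.0374, among alternatives of 0.000231 to 0.882). The genotype difference after CCl4 also passed with equal library medians (limma adjusted p = 0.0379) and with weights by genotype (0.0450). In wild type, the response to CCl4 (0.17 ± 0.17, limma adjusted p = 0.604) passed with only the libraries compared (0.0315). Macrophages also make Igf1, their markers were higher in knockout than in wild-type libraries, and their part in these values was not tested.

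Igfals, which encodes the acid-labile subunit that prolongs the life of IGF1 in blood, was low only in knockout CCl4 among the 4 groups. It was listed at 64.3 and 62.9 FPKM in wild-type oil, 57.4 and 56.0 FPKM in wild-type CCl4, 58.8 and 69.8 FPKM in knockout oil, and 25.2 and 26.3 FPKM in knockout CCl4. CCl4 left it 2.50-fold lower in the knockout (-1.28 ± 0.09, limma adjusted p = 5.54e-05), against a difference of -0.16 ± 0.09 in wild type (limma adjusted p = 0.308). The wild-type difference passed with only the libraries compared (limma adjusted p = 0.0252) and with weights by genotype (0.0417). The responses differed by -1.12 ± 0.13 (limma adjusted p = 0.00115). In oil the genotypes overlapped (0.011 ± 0.09, limma adjusted p = 0.938), with a sign that turned under quantile normalization and equal library medians, and after CCl4 the knockout was 2.20-fold lower (-1.11 ± 0.09, limma adjusted p = 0.000127). The ratio of Igf1 to Igfals FPKM was 0.714 and 0.744 in wild-type oil, 0.882 and 0.967 in wild-type CCl4, 1.15 and 0.678 in knockout oil, and 3.04 and 2.37 in knockout CCl4.

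Igfbp1 showed the largest genotype difference of the 10 genes. It encodes a short-lived binding protein that hepatocytes make when insulin is low or in stress and that withholds IGF1 from its receptor. Its values were 78.2 and 71.3 FPKM in wild-type oil, 91.5 and 90.6 FPKM in wild-type CCl4, 602 and 627 FPKM in knockout oil, and 2074 and 2440 FPKM in knockout CCl4. All 4 knockout libraries stood above all 4 wild-type libraries, and the knockout CCl4 libraries above those of oil. The knockout was 8.22-fold higher in oil (3.02 ± 0.10, limma adjusted p = 8.38e-06) and 24.8-fold higher after CCl4 (4.61 ± 0.10, limma adjusted p = 9.60e-07). CCl4 raised it 3.67-fold in the knockout (1.87 ± 0.10, limma adjusted p = 1.23e-05), against a difference of 0.28 ± 0.10 in wild type (limma adjusted p = 0.0987), and the responses differed by 1.59 ± 0.14 (limma adjusted p = 0.000318). The wild-type difference passed without replicate 1 or 2 of knockout CCl4 (limma adjusted p = 0.0387 and 0.0395, among alternatives of 0.00274 to 0.428). By mean FPKM, Igfbp1 ranked 812 among all genes in wild-type oil, 684 in wild-type CCl4, 124 in knockout oil and 42 in knockout CCl4. The insulin response element core printed above lies before the start of this gene.

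Igfbp2, which encodes a binding protein that rises in fasting, moved in opposite directions with CCl4 in the 2 genotypes. It was listed at 234 and 256 FPKM in wild-type oil, 416 and 389 FPKM in wild-type CCl4, 385 and 504 FPKM in knockout oil, and 149 and 183 FPKM in knockout CCl4. The knockout CCl4 libraries were the lowest of all 8, below those of wild-type oil. CCl4 raised it 1.64-fold in wild type (0.71 ± 0.15, limma adjusted p = 0.0231) and lowered it 2.68-fold in the knockout (-1.41 ± 0.15, limma adjusted p = 0.000326), and the responses differed by -2.12 ± 0.22 (limma adjusted p = 0.000624). Knockout hepatocytes held 1.81-fold more in oil (0.84 ± 0.15, limma adjusted p = 0.00661) and 2.43-fold less after CCl4 (-1.28 ± 0.15, limma adjusted p = 0.000578). The wild-type call was lost without replicate 1 or 2 of wild-type oil (limma adjusted p = 0.159 and 0.102) or replicate 1 or 2 of wild-type CCl4 (0.146 and 0.109) and with equal library medians (0.0625), against 4.75e-06 to 0.159 over all alternatives. The genotype call in oil was lost without replicate 1 of wild-type oil (limma adjusted p = 0.0575, the highest of its alternatives, with 7.12e-07 the lowest).

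Igfbp3, which encodes the binding protein of the circulating complex, was at or under 0.14 FPKM in every wild-type library. Its values were 0.14 and 0.11 FPKM in wild-type oil, 0.11 and 0.09 FPKM in wild-type CCl4, 0.63 and 0.72 FPKM in knockout oil, and 2.01 and 1.78 FPKM in knockout CCl4. The knockout groups stood apart from wild type and from each other, at low levels throughout. The log2 difference between the genotypes was 0.57 ± 0.08 in oil (limma adjusted p = 0.00289) and 1.39 ± 0.08 after CCl4 (limma adjusted p = 3.12e-05), and CCl4 raised it by 0.79 ± 0.08 in the knockout (limma adjusted p = 0.000301). With a pseudocount of 0.1, which compresses low genes less, the same 3 differences were the largest of their alternatives, at 1.79, 3.32 and 1.36. In rat liver, Igfbp3 is known from Kupffer and endothelial cells rather than hepatocytes. Macrophage and endothelial markers were higher in both knockout groups, as given above. With CCl4 in the knockout, where Igfbp3 rose, 4 of 12 macrophage markers rose and 3 fell, near the shares over all genes of 27.9% and 27.4%. Of 9 tested endothelial markers, 4 fell there and 0 rose by limma (0 at an unadjusted p under 0.05). The part of these cells in the Igfbp3 values was not tested. Igfbp1 and Igfbp3 are neighbours on chromosome 11.

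Igfbp4, which encodes a binding protein that inhibits IGF action, was the most abundant of the 10 genes in the wild-type and knockout oil groups and in wild-type CCl4. Its values were 838 and 892 FPKM in wild-type oil, 898 and 832 FPKM in wild-type CCl4, 937 and 1074 FPKM in knockout oil, and 462 and 547 FPKM in knockout CCl4. The knockout CCl4 libraries stood below the other 6. CCl4 left it 1.99-fold lower in the knockout (-0.995 ± 0.11, limma adjusted p = 0.000388), while the wild-type groups overlapped at a log2 difference of -0.00026 ± 0.11 (limma adjusted p = 0.999), and the responses differed by -0.995 ± 0.16 (limma adjusted p = 0.00397). Against wild type, the knockout difference was 0.21 ± 0.11 in oil (limma adjusted p = 0.187) and -0.78 ± 0.11 after CCl4 (limma adjusted p = 0.00127).

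**Figure D2:**
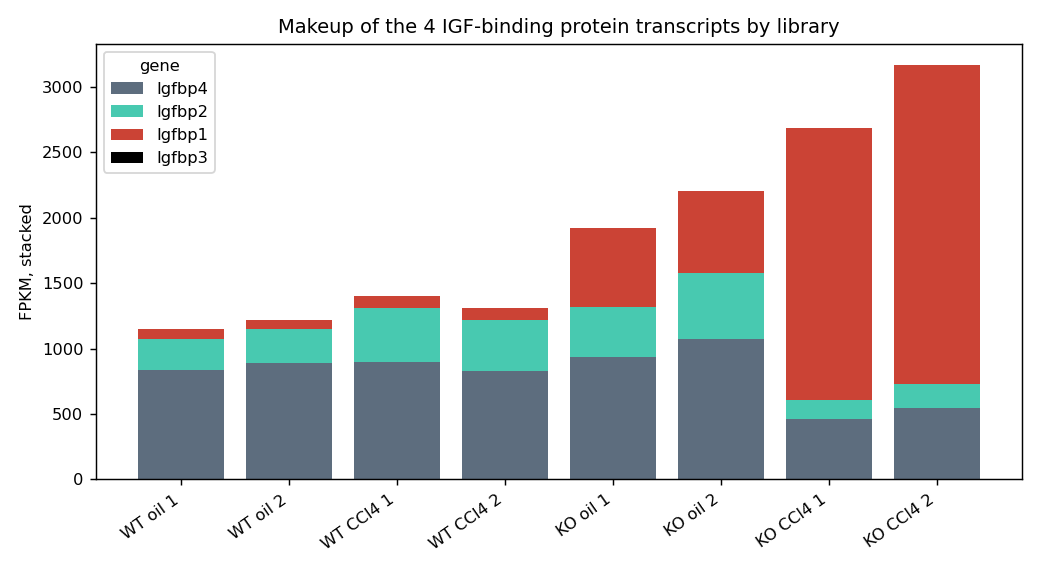
Stacked FPKM (linear axis from 0) of Igfbp4, Igfbp2, Igfbp1 and Igfbp3 in each of the 8 libraries, WT being wild type and KO knockout. Igfbp1 made up 5.84% to 6.91% of the sum in wild-type libraries and 76.9% and 77.2% in the KO CCl4 libraries, and Igfbp3 is too low to be seen.

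The makeup of the binding protein transcripts was not alike in the groups. FPKM is scaled to transcript length, so levels can be set side by side. The sum of Igfbp1 to Igfbp4 was 1150 and 1219 FPKM in wild-type oil, 1405 and 1312 FPKM in wild-type CCl4, 1924 and 2205 FPKM in knockout oil, and 2687 and 3171 FPKM in knockout CCl4. Igfbp1 made up 6.80% and 5.84% of it in wild-type oil, 6.51% and 6.91% in wild-type CCl4, 31.3% and 28.4% in knockout oil, and 77.2% and 76.9% in knockout CCl4. The share of Igfbp4 was 72.8% and 73.2% in wild-type oil and 17.2% in both knockout CCl4 libraries. The ratio of Igfbp1 to Igf1 FPKM was between 1.52 and 1.81 in the 4 wild-type libraries, 8.91 and 13.2 in knockout oil, and 27.0 and 39.2 in knockout CCl4. These shares and ratios are descriptions with no test of their own.

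The order of the 10 levels was not the same in every group. In wild-type oil it ran Igfbp4, Igfbp2, Ghr, Igfbp1, Igfals, Igf1, Stat5b, Cish, Socs2 and Igfbp3, with no neighbours that overlapped between libraries. Wild-type CCl4 kept that order, although Stat5b and Cish overlapped. In knockout oil Igfbp1 came after Igfbp4 and ahead of Igfbp2, Socs2 came ahead of Cish, and Igfals and Igf1 overlapped. In knockout CCl4 Igfbp1 led, ahead of Igfbp4, Igfbp2, Ghr, Igf1, Igfals, Socs2, Cish, Stat5b and Igfbp3, where Ghr overlapped Igf1, and Socs2, Cish and Stat5b overlapped as neighbours.

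**Figure D3:**
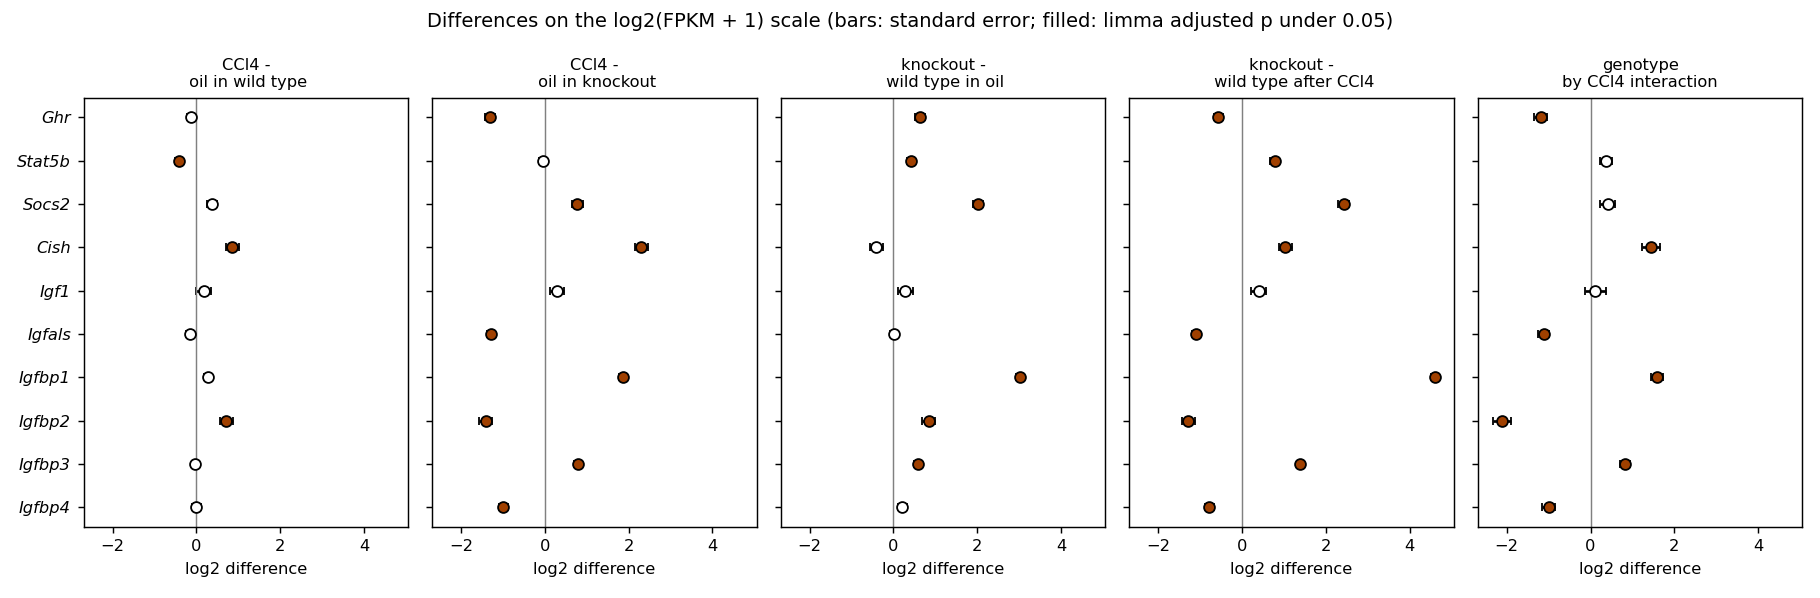
Log2 differences of the 10 genes on the log2(FPKM + 1) scale with standard errors, for 4 comparisons and for the interaction (the CCl4 difference in knockout minus that in wild type), with filled points where limma's adjusted p was under 0.05. Of the 10 genes, 3 are filled for CCl4 in wild type and 9 for genotype after CCl4, and Igfbp1 lies farthest from 0, at 4.61.

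Counted by comparison, CCl4 changed 3 of the 10 genes in wild type, where Cish and Igfbp2 rose and Stat5b fell, beside 15.8% of all genes tested (10.2% higher and 5.61% lower). In the knockout it changed 8, with Socs2, Cish, Igfbp1 and Igfbp3 higher and Ghr, Igfals, Igfbp2 and Igfbp4 lower, beside 55.3% of all genes (27.9% higher and 27.4% lower). Between the genotypes in oil, 6 were higher in the knockout and 0 lower by limma (Cish alone was lower at an unadjusted p under 0.05), beside 33.4% of all genes (22.4% higher and 11.0% lower). After CCl4, 9 differed, 5 higher and 4 lower in the knockout, beside 57.1% of all genes (29.6% higher and 27.5% lower). The CCl4 response differed between the genotypes for 7 (3 more positive and 4 more negative in the knockout), beside 33.3% of all genes (14.3% more positive and 19.0% more negative). The medians over the 10 genes were 0.086, 0.12, 0.49, 0.59 and 0.24 in these comparisons, in that order, against medians over all genes tested of 0.042, -0.025, 0.049, -0.023 and -0.089. The comparisons share groups, so their counts are not independent. Igfbp3, which entered the test only through the knockout CCl4 libraries, is counted in all of them except CCl4 in wild type. The model gives each gene 1 variance for all 4 groups. The SD of the log2 difference between libraries of a group was 0.139 in wild type and 0.364 and 0.394 in the knockout. With only the libraries compared, CCl4 changed 7 of the 10 genes in wild type, beside 4180 of the 10082 genes tested. In the knockout it changed 8 of the 10 genes, beside 3897. How far the wild-type and knockout counts lie apart thus depends on the model. The wild-type count fell when any 1 wild-type library was left out. It rose without both knockout libraries of replicate 1 or of replicate 2. The count over all genes moved the same way in each case. The count for genotype in oil fell without replicate 1 of wild-type oil.

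Other genes of growth hormone signalling were read from fixed lists. Of 12 signalling partners, 5 rose with CCl4 in wild type, beside 10.2% of all genes, and the other 7 did not pass. In the knockout 3 rose and 4 fell, near the shares over all genes of 27.9% and 27.4%. Stat3, which inflammatory cytokines activate, rose by 0.67 ± 0.08 in wild type (limma adjusted p = 0.00218) and by 1.09 ± 0.08 in the knockout (limma adjusted p = 5.45e-05). Hnf4a, a factor of hepatocyte identity that also binds growth hormone target genes, changed by -0.92 ± 0.07 with CCl4 in the knockout (limma adjusted p = 6.25e-05). Prlr, the prolactin receptor gene of the same receptor family, rose with CCl4 in wild type (0.87 ± 0.10), fell with it in the knockout (-0.37 ± 0.10, limma adjusted p = 0.0203) and was higher in the knockout in oil (1.00 ± 0.10). Its responses to CCl4 differed by -1.24 ± 0.14 (limma adjusted p = 0.00111). Sirpa, a myeloid receptor gene that also restrains the hormone's signal, was higher in the knockout in oil (1.62 ± 0.15) and rose with CCl4 in wild type (1.39 ± 0.15). Of the macrophage markers, 12 of 12 and 9 of 12 were higher in those comparisons, beside 22.4% and 10.2% of all genes. The part of macrophages in the Sirpa values was not tested. Between the genotypes, 5 partners were higher in the knockout in oil (22.4% of all genes) and the other 7 did not pass, and 3 were higher and 5 lower after CCl4 (29.6% and 27.5% of all genes).

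Among 12 tested genes that restrain the pathway, Socs3, a suppressor induced by interleukin-6, ran counter to Socs2 and Cish in part. Socs3 was listed at 4.12 and 3.48 FPKM in wild-type oil, 16.3 and 15.1 FPKM in wild-type CCl4, 23.0 and 25.2 FPKM in knockout oil, and 7.92 and 7.65 FPKM in knockout CCl4. CCl4 raised it in wild type (1.80 ± 0.10, limma adjusted p = 0.000126) and lowered it in the knockout (-1.51 ± 0.10, limma adjusted p = 3.68e-05), a difference of -3.32 ± 0.14 (limma adjusted p = 2.32e-05). Bcl6, a repressor that occupies STAT5 sites, stood at 4.03 and 4.45 FPKM in wild-type oil, 2.43 and 2.66 FPKM in wild-type CCl4, 17.6 and 17.5 FPKM in knockout oil, and 3.23 and 3.11 FPKM in knockout CCl4. Of these 12 genes, 2 rose and 1 fell with CCl4 in wild type, where 10.2% and 5.61% of all genes did, and 1 rose and 3 fell in the knockout, where 27.9% and 27.4% did. In oil 6 were higher in the knockout (22.4% of all genes) and the other 6 did not pass, and after CCl4 3 were higher and 2 lower (29.6% and 27.5%).

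Receptors and adaptors pass on the IGF and insulin signal inside the cell. Igf1r and Igf2, the IGF1 receptor and the fetal growth factor, stayed at or under 0.24 FPKM in every library and were not tested. Of 6 tested genes, 0 passed with CCl4 in wild type by limma (1 at an unadjusted p under 0.05), and 3 rose and 3 fell in the knockout, where 27.9% and 27.4% of all genes did. In oil 3 were higher in the knockout (22.4% of all genes) and the other 3 did not pass, and after CCl4 3 were higher and 3 lower (29.6% and 27.5%). Irs2, an adaptor of the insulin receptor, was listed at 0.84 and 0.86 FPKM in wild-type oil, 1.23 and 0.98 FPKM in wild-type CCl4, 7.71 and 7.67 FPKM in knockout oil, and 9.88 and 11.4 FPKM in knockout CCl4. Its genotype difference was 2.23 ± 0.11 in oil (limma adjusted p = 3.32e-05) and 2.46 ± 0.11 after CCl4 (limma adjusted p = 8.10e-06). Insr, the insulin receptor gene, and Irs1, another adaptor, fell with CCl4 in the knockout, with log2 differences of -1.41 and -0.78. Of 8 other binding protein and protease genes, Igfbp7 alone was tested. It was higher in the knockout in oil (2.22 ± 0.24, limma adjusted p = 0.000848) and after CCl4 (2.20 ± 0.24, limma adjusted p = 0.000381). Endothelial cells make much of it, and 9 of 9 tested endothelial markers were higher in the knockout in both comparisons, beside 22.4% and 29.6% of all genes. The part of these cells in the Igfbp7 values was not tested. The binding protein proteases Pappa and Pappa2 were at or under 0.01 FPKM in all libraries.

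Growth hormone is released in pulses in male rodents and more evenly in females, and liver genes that depend on this pattern are expressed unequally in the sexes. Of 24 genes known as higher in male liver, 18 fell with CCl4 in wild type and 0 rose by limma (also 0 at an unadjusted p under 0.05), beside 5.61% of all genes lower, with a list median of -1.48 against 0.042 over all genes. In the knockout, 2 rose and 17 fell with CCl4, beside 27.9% and 27.4% of all genes, with a median of -0.89 against -0.025 over all genes. Mup11 and Mup17, major urinary protein genes, had log2 differences of -5.49 and -4.82 in wild type. Selenbp2, whose product binds selenium, was at -3.85 there and at -5.23 in the knockout. Elovl3, a fatty acid elongase gene, and Hsd3b5, a steroid-metabolizing enzyme gene, fell with CCl4 in the knockout, with log2 differences of -3.40 and -4.37. Both also fell with CCl4 in wild type, at -1.94 and -1.54, and were higher in the knockout in oil, at 1.10 and 1.53. Between the genotypes, 5 were higher and 11 lower in the knockout in oil (22.4% and 11.0% of all genes), and 8 were higher and 9 lower after CCl4 (29.6% and 27.5%). Mup20 and Mup7 were lower in the knockout in oil, at -1.54 ± 0.07 and -1.44 ± 0.09, and Serpina12, a protease inhibitor gene, was higher after CCl4, at 2.23 ± 0.13.

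Of 27 genes known as higher in female liver, 26 were in the table and 16 were tested. With CCl4, 5 rose and 3 fell in wild type (10.2% and 5.61% of all genes), and 3 rose and 6 fell in the knockout (27.9% and 27.4%). Between the genotypes, 8 were higher and 3 lower in the knockout in oil (22.4% and 11.0% of all genes), and 8 were higher and 4 lower after CCl4 (29.6% and 27.5%). Cyp2a4, a steroid hydroxylase gene, was listed at 1.68 and 1.60 FPKM in wild-type oil, 18.1 and 29.2 FPKM in wild-type CCl4, 1467 and 1639 FPKM in knockout oil, and 1633 and 1846 FPKM in knockout CCl4. Its knockout libraries thus stood far above those of wild type under both treatments. Acot3, a thioesterase gene, was higher in the knockout in oil by 3.25 ± 0.10, and Cyp17a1, a steroid enzyme gene, rose with CCl4 in the knockout by 4.12 ± 0.08. Other members went the opposite way, such as Cyp2b10, a drug-metabolizing enzyme gene, which was lower in the knockout in oil, at -1.87 ± 0.09. The Mup genes and the P450 genes Cyp2a4, Cyp2b9, Cyp2b13 and those of the Cyp2c, Cyp3a and Cyp4a families have near-identical copies, so that single genes among them are uncertain.

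**Figure D4:**
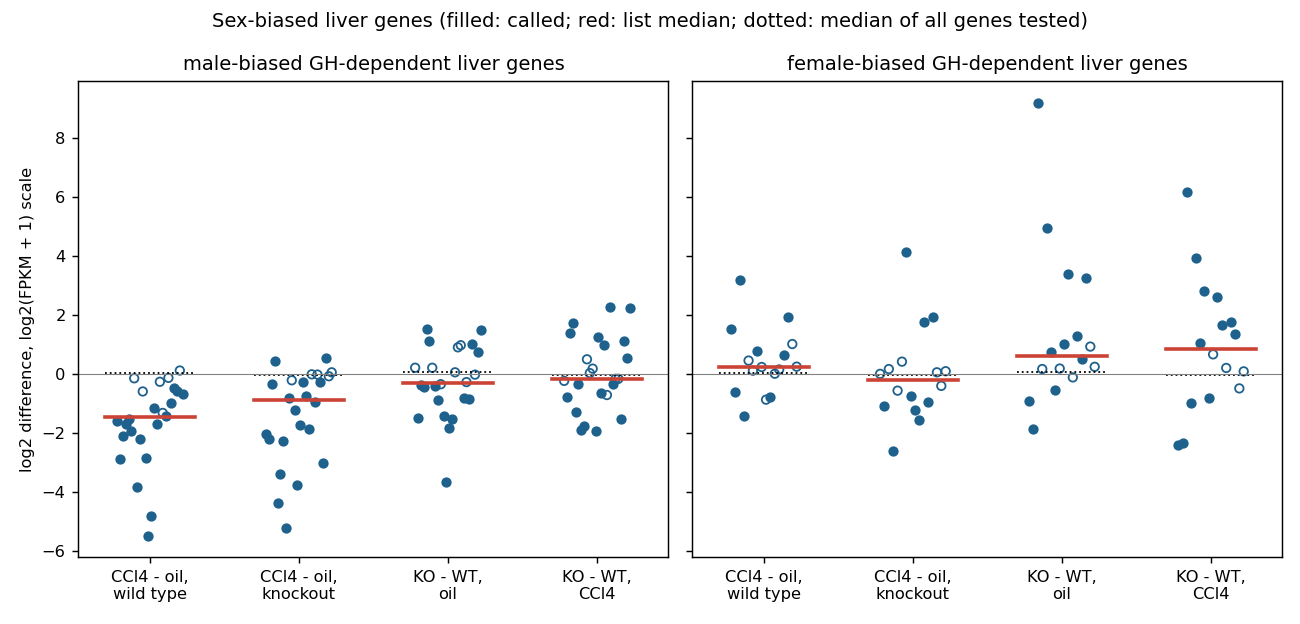
Log2 differences, on the log2(FPKM + 1) scale, of the 24 male-biased and 16 female-biased liver genes tested, in 4 comparisons (WT wild type, KO knockout), with filled points where limma's adjusted p was under 0.05, a red line at the list median and a dotted line at the median of all genes tested. In the CCl4 comparison of wild type, the male-biased median lies at -1.48 and 18 of the 24 genes are lower.

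Genes whose levels followed those of the 10 genes most closely over the 8 libraries were taken by Pearson's r of log2(FPKM + 1), among genes above the median level. The 8 libraries fall into 4 groups, so these values describe shared group patterns and carry no test. Igfbp1 was most like Per1, a circadian clock gene (r = 0.996), and Igfals most like Gstk1, a mitochondrial and peroxisomal glutathione transferase gene (r = 0.998). Ghr was followed most closely by Pcca, a propionyl-CoA carboxylase gene (r = 0.991), and Igf1 by Ugp2, which makes UDP-glucose for glycogen (r = 0.977). For Cish the closest were Hspb8, a small heat shock protein gene (r = 0.994), and Ptpn6, a phosphatase gene from the list of restraining genes (r = 0.992). Socs2 was most like Hadhb, a gene of mitochondrial fatty acid oxidation (r = 0.995), Igfbp2 like Idh2, a mitochondrial dehydrogenase gene (r = 0.993), and Igfbp4 like Msrb1, a methionine sulfoxide reductase gene (r = 0.997). Igfbp3 was most like Got1, an aminotransferase gene (r = 0.994), and Stat5b like Calcoco1 (r = 0.981). Among the 10 genes themselves, Socs2 and Igfbp1 ran most closely together (r = 0.989, n = 8 libraries), followed by Igfbp1 and Igfbp3 (r = 0.978) and by Igfals and Igfbp4 (r = 0.969). Ghr and Cish ran most strongly against each other (r = -0.936, n = 8 libraries).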

How the data were processed

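The authors deposited a table of FPKM for each gene in each of 8 hepatocyte libraries, per the file headers, rounded to 2 decimals. The build mm8 is named in the submitters' processing notes, whereas the sources used here do not name the aligner, counter, annotation or depth. Hepatocytes were obtained by collagenase digestion, per the labels' protocols. Of 16338 rows, 1 named no gene and was left out. Columns were assigned by their names. After adding a pseudocount of 1, FPKM was put on a log2 scale. Genes reaching 1 FPKM in 2 or more libraries (10082) entered limma 3.58.1 (trended prior, 4 residual and 2.61 prior degrees of freedom, R 4.3.3) in one model of 4 groups. The designed count test was replaced because the values are FPKM. Adjustment was by Benjamini-Hochberg over all genes of a comparison, two-sided, at an FDR of 0.05. The fit was checked on simulated data. All 10 genes are named, and of each pathway list up to 4 called genes a comparison with the smallest adjusted p were eligible, and genes outside this rule (Igf1r, Igf2, Pappa and Pappa2) were named after their values were seen. Some eligible genes are not reported here. The genes and lists were chosen with earlier results of these data known. Alternatives were quantile normalization, equal library medians, no filter, a pseudocount of 0.1, replicate blocks, only the libraries compared, weights by genotype and leaving out libraries. Figures were drawn with matplotlib 3.10.9.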

Additional observations from a re-analysis of the deposited data

Results flagged for a closer look

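The response to CCl4 differed between knockout and wild-type hepatocytes for 7 of the 10 genes, by limma's interaction term on the log2(FPKM + 1) scale. Of all genes tested, 33.3% passed in that comparison (14.3% more positive and 19.0% more negative in the knockout). The CCl4 difference in knockout minus that in wild type was positive for Igfbp1 (1.59 ± 0.14), Cish (1.44 ± 0.22) and Igfbp3 (0.82 ± 0.12, limma adjusted p = 0.00266). It was negative for Igfbp2 (-2.12 ± 0.22), Ghr (-1.19 ± 0.16, limma adjusted p = 0.00210), Igfals (-1.12 ± 0.13) and Igfbp4 (-0.995 ± 0.16). These 7 differences passed the threshold under every alternative run for them. Igfbp3 entered the test only through the knockout CCl4 libraries, so its call follows in part from the filter on low values. Of the 7, only Igfbp2 passed in both genotypes with opposite signs.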

How the results depend on the processing

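Of the 50 member differences, 890 values under alternatives were computed, of which 815 kept direction and side of the threshold, 43 gained a call, 21 lost one and 11 changed sign, and the causes were not tested. The count of the 10 genes changed by CCl4 in wild type was 3, beside 1592 of the 10082 genes tested. It was 1 with equal library medians, where the count over all genes fell too. It was 7 with only the libraries compared (4180 of all genes) and 6 with weights by genotype. It was 5 when the knockout alone had a replicate block (added after seeing the data). With each of the settings that raised it, the count over all genes for CCl4 in wild type rose as well. Leaving out 1 library gave 0 to 4 genes there, 8 to 9 for CCl4 in the knockout, 3 to 6 for genotype in oil, 9 to 10 for genotype after CCl4 and 7 to 8 for the interaction. Sign changes concerned differences that did not pass. Igfbp4 with CCl4 in wild type was 0.021 with quantile normalization and -0.055 to 0.055 without 1 library (0.045 without replicate 2 of wild-type oil). Stat5b with CCl4 in the knockout was -0.12 to 0.026 without 1 library. Igfals between genotypes in oil was -0.083 with quantile normalization, -0.013 with equal medians, and -0.11 to 0.13 without libraries (-0.0043 without replicate 2 of wild-type oil). Igf1 in the interaction was -0.14 to 0.36 without 1 library (-0.035 without replicate 1 of knockout CCl4). Over all genes, the number called ranged from 596 to 4180 for CCl4 in wild type (main 1592), 3897 to 7409 for CCl4 in the knockout (5574), 1650 to 6067 for genotype in oil (3368), 4015 to 7705 for genotype after CCl4 (5761) and 2007 to 5876 for the interaction (3355). With the replicate number as a block, 2, 8, 6, 9 and 7 of the 10 genes passed in the 5 comparisons, Stat5b with CCl4 in wild type being lost (limma adjusted p = 0.0502). Over all genes, this block gave slightly more calls than the main fit for CCl4 in wild type and for CCl4 in the knockout. Replicate differences correlated across genes at 0.803 between the knockout groups and between -0.253 and 0.219 in the other pairs, and the labels do not say that the numbers pair libraries. With the block in the knockout alone, the 3 Igf1 differences that involve knockout groups passed (limma adjusted p = 0.00199 for CCl4 in the knockout, 0.00308 for genotype in oil and 0.000208 for genotype after CCl4). With the numbers crossed in wild-type CCl4 (added after seeing the data), 10 of the 10 genes passed for genotype after CCl4. The main fit called 9 of the 10 there, beside 57.1% of all genes. Depth is unknown, so the precision of low genes such as Igfbp3 is known only from 2 libraries.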
